A study of Mus musculus with 28 samples.

Results

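The 9 genes followed here encode transcription factors of the macrophage lineage: Spi1, Runx1, Cebpa, Cebpb, Cebpd, Maf, Id2, Gfi1 and Zbtb46. They were picked by gene name among the 27670 names on the array, with Spi1 listed there as Sfpi1 and Zbtb46 as Btbd4, and each was represented by its brightest probe. All 9 were among the 22407 genes tested, and together they have 20 probes. The cells were bone marrow-derived macrophages of C57BL6/J mice aged 8 to 12 weeks, for which the labels name no gene alteration. Marrow of several animals was pooled (the labels give 2 males and 1 female), and every group was grown in human rCSF1 at 200 ng/ml. From day 7 cells were left unprimed or were primed for 18 h, either with IL-4 at 10 ng/ml or with IFNγ at 100 U/ml. Part of the cultures of each kind also received LPS at 10 ng/ml over the final 4 h. The groups were IL-4 + LPS and IL-4 alone (4 arrays each, experiments A, B, C and G), IFNγ + LPS and IFNγ alone (3 arrays each, experiments E, F and G), and LPS alone and untreated (7 arrays each, experiments A to G). The series describes its arrays as independent experiments, and its title asks how macrophages primed with IL-4 respond through TLR4, the receptor for LPS.

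PU.1, the product of Spi1, is the ETS-family factor without which macrophages do not form, and it works together with RUNX1 and the C/EBP factors at myeloid enhancers. C/EBPα acts in granulocyte and monocyte progenitors, while C/EBPβ and C/EBPδ are the inflammatory members of the family and bind promoters such as that of Il6. c-Maf is linked to Il10 transcription and restrains macrophage self-renewal, ID2 is a dominant-negative partner of E proteins, GFI1 is a zinc-finger repressor needed for granulocyte development, and ZBTB46 is a repressor known as a marker of classical dendritic cells.

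A level is given throughout as the log2 processed signal of the gene's probe minus the log2 of the array's 75th percentile, so 0 is the 75th percentile of that array. It can be compared between arrays for 1 probe, and not between probes. That percentile stood at a signal of 579 to 2118 over the 28 arrays, 60.0 to 78.5% of probes were well above background, and arrays of 1 group correlated at 0.94 to 0.99. Retnla, an IL-4 response gene, had levels of 7.28 to 8.30 in IL-4 + LPS cells, 7.52 to 8.10 in IL-4 cells and at most -6.60 in all other groups, and Il6, an LPS response gene, was at 3.08 or above in every LPS-treated array and at -7.23 or below in every untreated array. The 9 macrophage markers listed for the check (Csf1r, Adgre1, Itgam, Cd68, Fcgr1, Mertk, Lyz2, Cd14 and Tyrobp) were all above background on every array of the 5 treated groups, and at least 8 of them on every untreated array. The arrays lay on 10 slides. LPS and untreated arrays of the same experiment letter had correlations of only -0.50 to 0.16 in their deviations from the group means, while those of the same slide had 0.42 to 0.65, so the letters of these arrays are in doubt although their groups are not.

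Of the 9 genes, 6 have promoter sequences in RefSeq on build GRCm38.p6. Printed here are 4 windows of 250 bases upstream of the start, since they belong to genes on which the comparisons turn and each holds a motif that was searched for. Each line gives the window, then its bases 5′ to 3′ along the gene, with the motif in capitals.
Cebpb, chr2:167688665-167688914, plus strand: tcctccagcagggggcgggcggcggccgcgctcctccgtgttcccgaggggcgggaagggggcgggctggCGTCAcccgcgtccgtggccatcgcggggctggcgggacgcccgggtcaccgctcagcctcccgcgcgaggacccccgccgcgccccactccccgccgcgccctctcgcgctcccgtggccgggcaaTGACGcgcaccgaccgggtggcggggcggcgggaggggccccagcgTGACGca
Cebpa, chr7:35119043-35119292, plus strand: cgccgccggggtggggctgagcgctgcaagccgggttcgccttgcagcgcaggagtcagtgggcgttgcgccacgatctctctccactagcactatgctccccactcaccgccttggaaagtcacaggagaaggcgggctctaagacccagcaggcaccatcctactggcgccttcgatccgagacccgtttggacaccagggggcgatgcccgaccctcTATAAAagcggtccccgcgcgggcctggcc
Gfi1, chr5:107725806-107726055, minus strand: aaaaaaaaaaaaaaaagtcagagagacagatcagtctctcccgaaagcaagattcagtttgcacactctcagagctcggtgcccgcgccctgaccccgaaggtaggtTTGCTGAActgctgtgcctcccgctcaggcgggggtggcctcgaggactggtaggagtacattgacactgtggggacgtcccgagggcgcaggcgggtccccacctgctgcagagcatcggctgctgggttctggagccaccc
Zbtb46, chr2:181424389-181424638, minus strand: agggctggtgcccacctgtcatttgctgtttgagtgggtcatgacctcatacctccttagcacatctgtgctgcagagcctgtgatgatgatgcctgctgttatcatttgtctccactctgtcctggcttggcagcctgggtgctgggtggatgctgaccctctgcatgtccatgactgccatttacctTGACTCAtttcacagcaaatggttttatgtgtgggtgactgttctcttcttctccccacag
The Cebpb window holds the cAMP response element core (TGACG) 3 times, at positions -180, -53 and -7, where -1 is the last base before the start. At least 1 such core is found in 17.8% of the 32841 promoter windows of this length, and 3 or more in 0.688%. The Cebpa window holds a TATA box core (TATAAA) at -30, as 12.4% of all windows do somewhere. In the Gfi1 window the C/EBP motif (TTGCNNAA) lies at -143, and 9.57% of all windows hold it. The Zbtb46 window has an AP-1 motif (TGANTCA) at -61, a motif present in 6.75% of all windows. Both strands were searched, and no 2 of these matches overlap. No match to the PU.1 motif (GAGGAA, 23.3% of windows), the RUNX motif (TGTGGT, 14.0%), the STAT6 motif (5.85%) or the NF-kappaB motif (3.9%) was found in these 4 windows. Of the 2 Runx1 windows, 1 held the PU.1 motif, while the Id2 window, the other Runx1 window and the second Gfi1 window held none of the motifs named here. These are matches of letters in a window and not measured binding.

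LPS moved most of the 9 factors in unprimed cells: 6 were higher and 1 was lower in LPS cells than in untreated cells, and Runx1 and Maf were not called. A gene was called at a Benjamini-Hochberg adjusted p under 0.05 in limma's moderated test over all genes. Over all genes, 42.4% were called in this comparison (20.9% higher and 21.5% lower). The median difference of the 9 genes was 1.69 on the log2 scale, against 0.06 over all genes tested. For each of the 7 called genes every LPS array lay on 1 side of every untreated array. The share of all genes separated in this way was not counted, so this does not set the 7 genes apart. In bulk RNA, fewer cells of a type and less RNA per cell cannot be told apart.

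Spi1 had levels of 1.34, 1.52 and 2.09 at the lowest, median and highest LPS array, against -0.67, -0.04 and 0.20 in untreated cells. The groups did not overlap, and Spi1 was 3.23-fold higher with LPS (log2 difference 1.69 ± 0.21, SE; adjusted p = 1.62e-07, limma). For Runx1 the difference was 0.26 ± 0.20 (adjusted p = 0.351), and the groups overlapped. With the slide as a block the difference was 0.39 and passed the test (adjusted p = 0.0304).

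Among the C/EBP genes the 3 factors split. Cebpa, the progenitor factor, was at -4.55, -3.59 and -2.85 in LPS cells (lowest, median, highest), against -0.32, 0.60 and 1.58 in untreated cells. Its level fell 19.3-fold (log2 difference -4.27 ± 0.27; adjusted p = 1.48e-12), and the highest LPS array was well below the lowest untreated array. Cebpb, by contrast, stood at 6.23, 6.72 and 7.19 in LPS cells, against 3.70, 4.41 and 4.60 in untreated cells. Cebpb rose 5.58-fold (log2 difference 2.48 ± 0.19; adjusted p = 6.35e-11). Cebpd, its inflammatory relative, had levels of 7.57, 7.95 and 8.12 in LPS cells, against 4.04, 4.31 and 4.51 in untreated cells, and rose 12.0-fold (log2 difference 3.58 ± 0.28; adjusted p = 6.66e-11). The second probes of Cebpa (log2 difference -2.79 ± 0.26) and Cebpb (2.69 ± 0.20), each on the same transcript as the first, went the same way.

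Id2 was at 4.05, 4.65 and 4.81 in LPS cells, against 2.42, 3.10 and 3.36 in untreated cells. It was 2.94-fold higher with LPS (log2 difference 1.55 ± 0.21; adjusted p = 1.26e-06). The change in Gfi1 was the largest among the 9 genes. Its level was 1.75, 2.85 and 4.12 in LPS cells, against -6.58, -6.27 and -5.16 in untreated cells, where 4 of 7 arrays were above background. The log2 difference was 8.80 ± 0.38 (adjusted p = 1.86e-15), or 447-fold. With the normexp background correction it was 5.69, and 3 of the untreated values were not well above background. Zbtb46, by its brightest probe, was at -0.26, 1.43 and 2.97 in LPS cells, against -4.43, -3.39 and -2.73 in untreated cells. That is a log2 difference of 4.82 ± 0.48 (28.2-fold, adjusted p = 5.87e-09), with no overlap and a wide spread among the LPS arrays. The other tested Zbtb46 probes were not called, at 0.03, 0.38 and 0.23. The mean of all tested Zbtb46 probes gave 1.36 (adjusted p = 0.0016). Maf differed by 0.14 ± 0.23 (adjusted p = 0.692), and with quantile normalization its difference was -0.55 and passed the test (adjusted p = 0.0316). On the 5 slides that hold both groups, Spi1 differed by 1.21 to 2.01, Cebpa by -5.14 to -2.91 and Gfi1 by 7.13 to 9.75. All 7 called genes kept their direction there, which the lack of overlap between the groups had settled beforehand. In every other comparison whose groups share slides, the called genes also kept their direction on each such slide. For genes whose groups did not overlap, this too could not have come out otherwise.

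**Figure D1:**
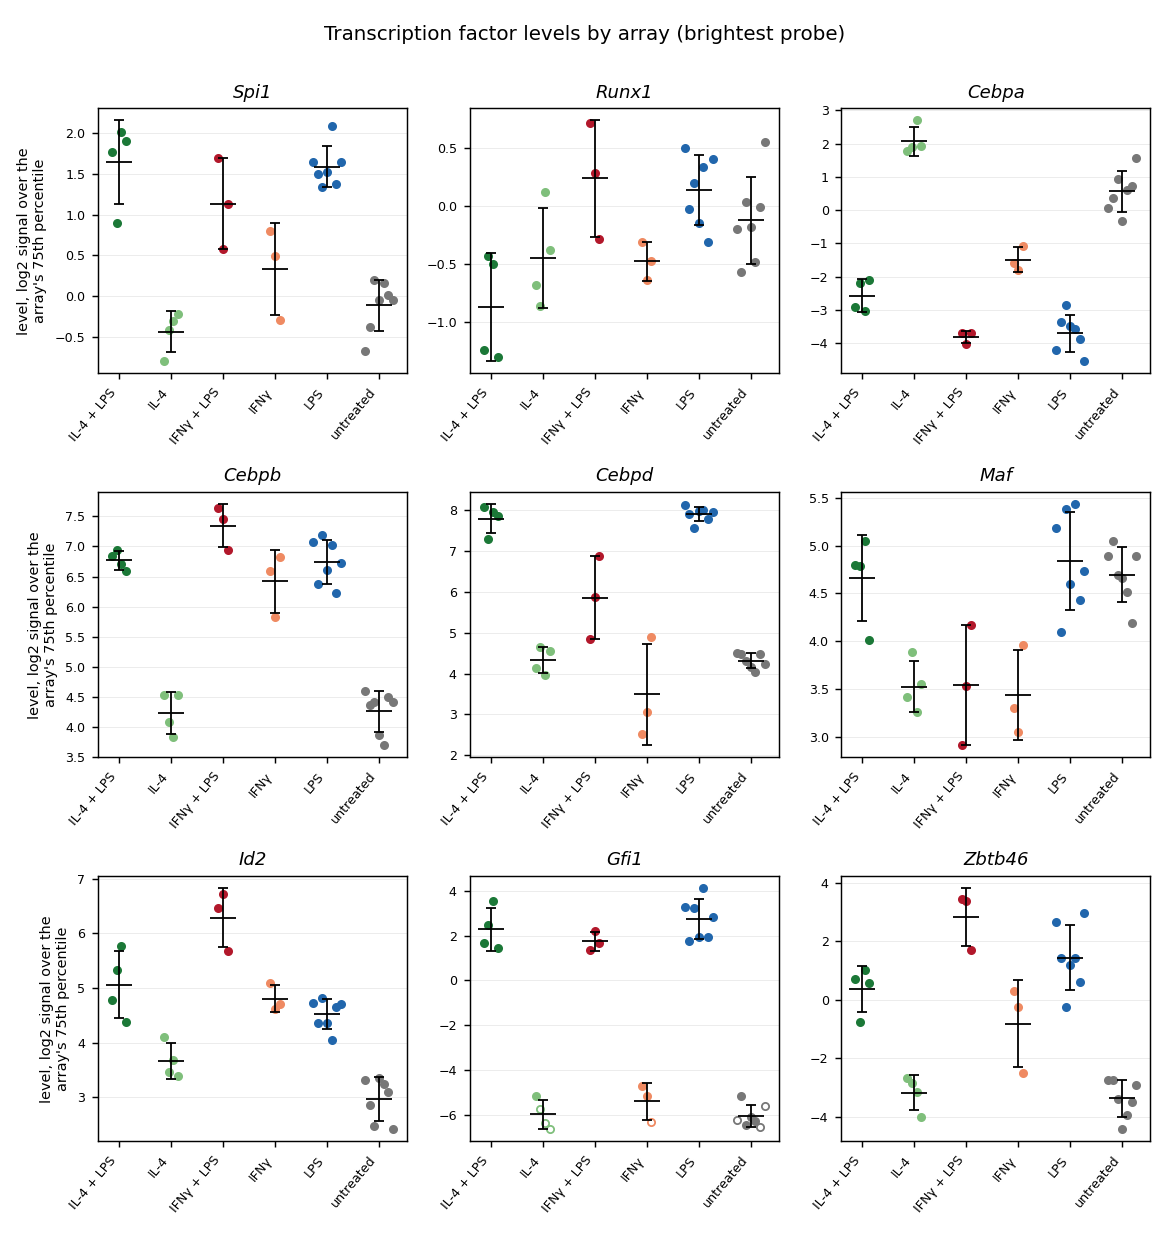
Level of each of the 9 genes on every array (log2 processed signal over the array's 75th percentile; brightest probe; each panel has its own scale), with groups from left to right IL-4 + LPS, IL-4, IFNγ + LPS, IFNγ, LPS and untreated. Points are arrays, filled where the probe was above background and open where not, and bars give the group mean ± SD. For Gfi1 the 7 LPS arrays lie between 1.75 and 4.12 and the 7 untreated arrays between -6.58 and -5.16.

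IL-4 alone raised Cebpa and lowered Maf, and the other 7 factors did not pass the test. Over all genes, 11.3% were called between IL-4 and untreated cells (5.82% higher and 5.52% lower). Over the 9 genes the median difference was 0.02, against 0.01 over all genes. Cebpa stood at 1.77, 1.89, 2.70 and 1.92 in IL-4 experiments A, B, C and G, against -0.32, 0.60 and 1.58 at the lowest, median and highest untreated array. All IL-4 arrays exceeded all untreated arrays, and Cebpa was 2.84-fold higher (log2 difference 1.50 ± 0.31; adjusted p = 0.0016). With the normexp correction the difference of 1.32 was not called (adjusted p = 0.191). For Maf the IL-4 arrays were at 3.41, 3.88, 3.25 and 3.55, against 4.19, 4.69 and 5.05 in untreated cells. Maf fell 2.26-fold (log2 difference -1.17 ± 0.27; adjusted p = 0.0038), with no overlap. Of its 3 other probes, 2 fell as well, as given with the probes further on. Id2 stood above every untreated array in all IL-4 experiments, at 4.11, 3.46, 3.68 and 3.39 against a highest untreated level of 3.36, but its log2 difference of 0.69 ± 0.25 was not called (adjusted p = 0.0812). It passed with the scan day as a block (0.79, adjusted p = 0.0316).

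IFNγ alone changed 5 of the 9 factors: Cebpb, Id2 and Zbtb46 rose, and Cebpa and Maf fell. Over all genes, 25.9% were called (12.8% higher and 13.1% lower). The median difference of the 9 genes was 0.44 on the log2 scale, against -0.28 over all genes, and the median over all genes was 0.16 with median scaling. The share of calls that were higher was 49.3% and moved to 77.5% with median scaling. Cebpb stood at 6.60, 5.84 and 6.83 in IFNγ experiments E, F and G, against 3.70, 4.41 and 4.60 at the lowest, median and highest untreated array. It was 4.46-fold higher (log2 difference 2.16 ± 0.25; adjusted p = 3.11e-07). Id2 was at 5.09, 4.61 and 4.71 in IFNγ cells, against 2.42, 3.10 and 3.36, and rose 3.57-fold (log2 difference 1.84 ± 0.28; adjusted p = 1.62e-05). Every IFNγ array lay above every untreated array for both genes.

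Cebpa was at -1.60, -1.79 and -1.08 in IFNγ cells, against -0.32, 0.60 and 1.58 in untreated cells, a 4.16-fold fall (log2 difference -2.06 ± 0.35; adjusted p = 6.65e-05). Maf stood at 3.30, 3.05 and 3.95 in IFNγ cells, against 4.19, 4.69 and 5.05 in untreated cells. It fell by 1.26 ± 0.30 on the log2 scale (2.40-fold; adjusted p = 0.0022), which with median scaling was 0.83 and not called (adjusted p = 0.0686). Zbtb46 was at 0.32, -0.26 and -2.49 in IFNγ cells, against -4.43, -3.39 and -2.73 in untreated cells. Experiment G was much lower than E and F but still above all untreated arrays, and the log2 difference was 2.56 ± 0.62 (5.91-fold; adjusted p = 0.0028). This call rests on the brightest probe: the mean of all tested Zbtb46 probes gave 0.32 (adjusted p = 0.6). With normexp it was 1.68 and not called (adjusted p = 0.0903). The call of Cebpd depended on an array and on the setting. It stood at 2.51, 3.07 and 4.89 in IFNγ cells, against 4.04, 4.31 and 4.51 in untreated cells, a difference of -0.83 ± 0.36 that was not called (adjusted p = 0.0951). Without experiment G, whose array was above all untreated arrays, it was -1.52 (adjusted p = 8.23e-04), with the slide as a block -1.46 (adjusted p = 2.83e-04) and with quantile normalization -1.29 (adjusted p = 0.0039). Gfi1 was not called either, at 0.65, and was called with quantile normalization (1.50, adjusted p = 0.0156).

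**Figure D2:**
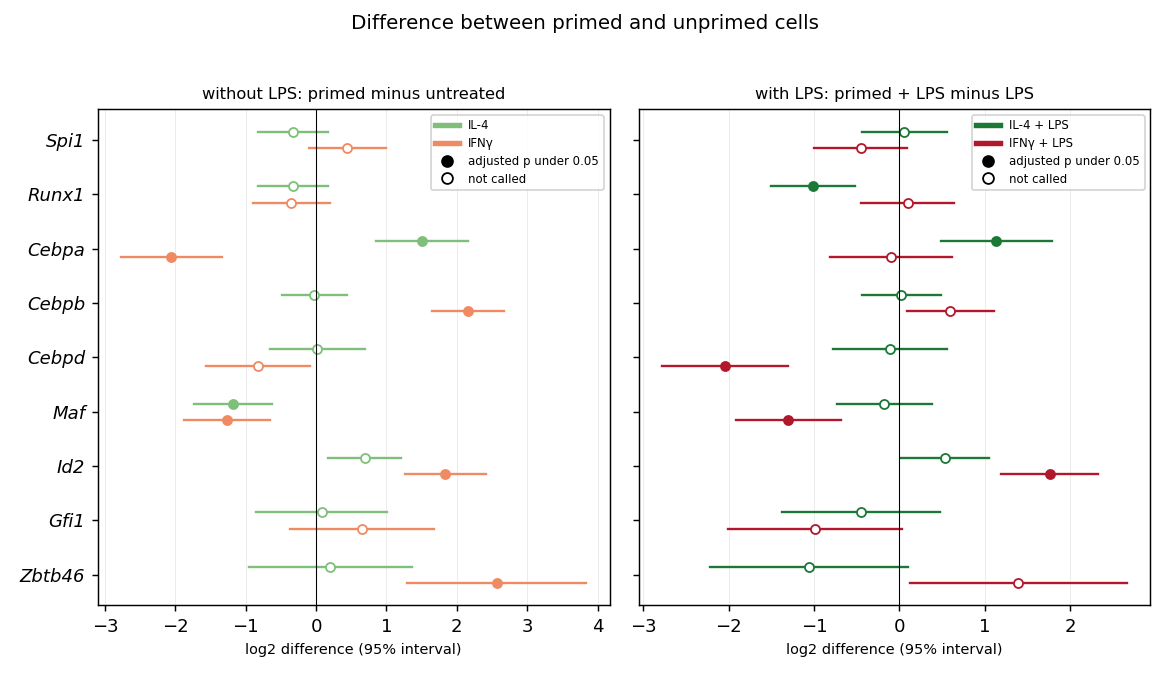
Log2 difference between primed and unprimed cells for the 9 genes, without LPS at left (IL-4 or IFNγ minus untreated) and with LPS at right (IL-4 + LPS or IFNγ + LPS minus LPS). Points are differences with 95% intervals, filled at adjusted p under 0.05 and open otherwise. Cebpa lies at 1.50 for IL-4 and at -2.06 for IFNγ, and Cebpb at -0.02 and 2.16.

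LPS in IL-4-primed cells changed 8 of the 9 factors, 7 upward and Cebpa downward, and Runx1 was not called. Over all genes, 31.3% were called between IL-4 + LPS and IL-4 cells (15% higher and 16.3% lower). The 9 genes had a median difference of 2.07, against 0.14 over all genes. Cebpa was at -2.93, -2.19, -3.04 and -2.11 in IL-4 + LPS experiments A, B, C and G, against 1.77, 1.89, 2.70 and 1.92 in IL-4 cells. All 4 arrays with LPS lay far below all 4 without, a 24.9-fold fall (log2 difference -4.64 ± 0.35; adjusted p = 1.29e-10). The inflammatory C/EBP genes rose: Cebpb by 2.53 ± 0.25 (adjusted p = 1.45e-08) and Cebpd by 3.46 ± 0.37 (adjusted p = 3.83e-08), both without overlap. Spi1 stood at 1.76, 0.90, 2.01 and 1.90 in IL-4 + LPS cells, against -0.79, -0.41, -0.30 and -0.22 in IL-4 cells. It rose 4.21-fold (log2 difference 2.07 ± 0.27; adjusted p = 1.05e-06).

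Maf, whose brightest probe was not called with LPS in unprimed cells, was at 4.80, 4.79, 5.05 and 4.01 in IL-4 + LPS cells, against 3.41, 3.88, 3.25 and 3.55 in IL-4 cells. The groups did not overlap, and the log2 difference was 1.14 ± 0.30 (adjusted p = 0.0045). It was smaller and not called with quantile normalization (0.70, adjusted p = 0.0506). Of the other Maf probes, A_51_P379230 rose by 1.43 ± 0.26 (adjusted p = 8.09e-05). A_52_P1074873 (0.28 ± 0.26, adjusted p = 0.472) and A_52_P306079 (0.57 ± 0.30, adjusted p = 0.163) were not called. The difference between the LPS changes in the IL-4 and the unprimed cells was tested as an interaction, in which Maf had 1.00 ± 0.38 and was not called (adjusted p = 0.325). None of the 9 genes was called in that interaction in limma, 1 had an unadjusted p under 0.05, and 1.62% of all genes were called (0.906% higher and 0.714% lower). Runx1 was called in it with the slide as a block (-0.81, adjusted p = 0.047). Id2 rose 2.64-fold (log2 difference 1.40 ± 0.28; adjusted p = 3.30e-04), Gfi1 by 8.28 ± 0.51 (adjusted p = 2.22e-12; 1 of 4 IL-4 arrays above background) and Zbtb46 by 3.56 ± 0.63 (adjusted p = 7.38e-05) on the log2 scale. With normexp the Gfi1 rise was 4.82 (adjusted p = 1.80e-06), and the mean of all tested Zbtb46 probes gave 2.21 (adjusted p = 3.10e-04). Runx1 differed by -0.42 ± 0.27 (adjusted p = 0.281), which was called with the slide as a block (-0.42, adjusted p = 0.0455).

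LPS in IFNγ-primed cells changed 6 of the 9 factors, 5 upward and Cebpa downward. Over all genes, 11.8% were called between IFNγ + LPS and IFNγ cells (5.66% higher and 6.18% lower). The median difference of the 9 genes was 0.92, against 0.14 over all genes. Cebpa stood at -3.70, -4.01 and -3.70 in IFNγ + LPS experiments E, F and G, against -1.60, -1.79 and -1.08 in IFNγ cells. The arrays with LPS lay below those without, a 4.97-fold fall (log2 difference -2.31 ± 0.41; adjusted p = 3.68e-04). With normexp the fall was 0.84 and not called (adjusted p = 0.308), and its second probe gave -1.06 ± 0.39 without a call (adjusted p = 0.0797). Cebpb was at 7.63, 7.45 and 6.94 in IFNγ + LPS cells, against 6.60, 5.84 and 6.83 in IFNγ cells. The 2 groups barely separated, and the log2 difference of 0.92 ± 0.29 was only just called (adjusted p = 0.04). The call was lost with the replicate letter as a block (adjusted p = 0.0551), with median scaling (0.237) and without the IFNγ F, IFNγ + LPS E or IFNγ + LPS F array (adjusted p of 0.241, 0.191 and 0.125). Cebpb was also not called with normexp (0.50, adjusted p = 0.349), quantile normalization (0.525, adjusted p = 0.254) or no filter (adjusted p = 0.0556). Nor was it when only the 2 groups compared were fitted (adjusted p = 0.232). Its second probe passed at 1.32 ± 0.30 (adjusted p = 0.0036).

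Cebpd stood at 4.84, 5.87 and 6.86 in IFNγ + LPS cells, against 2.51, 3.07 and 4.89 in IFNγ cells. Experiment G of the IFNγ cells reached the lowest IFNγ + LPS array, so the groups overlapped, while the log2 difference was 2.37 ± 0.42 (adjusted p = 4.08e-04). Within each of the 3 slides that hold both groups Cebpd was 1.98 to 2.80 higher with LPS. Id2 rose by 1.48 ± 0.33 (adjusted p = 0.0032), and with normexp its 1.05 was not called (adjusted p = 0.242). Gfi1 was at 1.38, 2.21 and 1.67, against -4.72, -5.17 and -6.34 in IFNγ cells (2 of 3 above background), a log2 difference of 7.16 ± 0.59 (adjusted p = 1.05e-08). Zbtb46 was at 3.44, 3.37 and 1.70, against 0.32, -0.26 and -2.49 in IFNγ cells, and rose by 3.65 ± 0.73 (adjusted p = 0.0013). The mean of all tested Zbtb46 probes gave 1.43 and was not called (adjusted p = 0.0754). Fitting only the 2 groups compared ended the calls of Zbtb46 (adjusted p = 0.058), Cebpd (0.14) and Id2 (0.0704). For Gfi1 and Zbtb46 all IFNγ + LPS arrays were above all IFNγ arrays. Spi1 (0.80 ± 0.31, adjusted p = 0.107), Runx1 (0.71 ± 0.31, adjusted p = 0.16) and Maf (0.10 ± 0.35, adjusted p = 0.903) were not called. With the slide as a block Spi1 (adjusted p = 0.0167) and Runx1 (0.0106) were called, and Spi1 was also called without the IFNγ + LPS F array (1.08, adjusted p = 0.0465).

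The LPS change itself differed between IFNγ-primed and unprimed cells for 2 of the 9 genes in the interaction test, where 8.34% of all genes were called (3.06% higher and 5.28% lower). The share of these calls that were higher was 36.7%, and 25.7% with median scaling. For Cebpa the interaction was 1.96 ± 0.49 (adjusted p = 0.0113): the LPS fall was 2.31 in IFNγ cells, against 4.27 in unprimed cells. For Cebpb it was -1.56 ± 0.35 (adjusted p = 0.0047): the LPS rise was 0.92 in IFNγ cells, against 2.48 in unprimed cells. Both second probes passed as well, at 1.72 for Cebpa (adjusted p = 0.0197) and -1.37 for Cebpb (adjusted p = 0.0151). Cebpa was 2.01 and 3.04, and Cebpb -1.62 and -1.24, on the 2 slides that hold all 4 groups. The Cebpa interaction was not called with median scaling (1.78, adjusted p = 0.0631) or with normexp (2.24, adjusted p = 0.11). Cebpd had an interaction of -1.22 ± 0.51 that was not called (adjusted p = 0.171), and was called without the IFNγ E array (-1.71, adjusted p = 0.0368), without the IFNγ + LPS G array (-1.72, adjusted p = 0.0307) and with the slide as a block (-1.21, adjusted p = 0.0087). Gfi1 had -1.64 ± 0.70 without a call (adjusted p = 0.187), and was called with the scan day as a block (adjusted p = 0.0491) and with quantile normalization (-2.46, adjusted p = 0.0144). These comparisons share the untreated and LPS arrays.

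**Figure D3:**
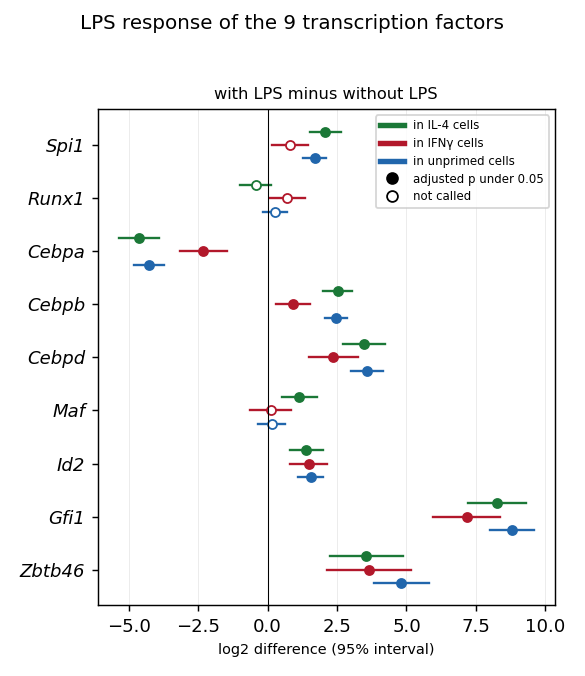
Log2 difference between cells with and without LPS for the 9 genes, in IL-4-primed (IL-4 + LPS minus IL-4), IFNγ-primed (IFNγ + LPS minus IFNγ) and unprimed (LPS minus untreated) cells. Points are differences with 95% intervals, filled at adjusted p under 0.05 and open otherwise. Cebpa lies at -4.64, -2.31 and -4.27 and Cebpb at 2.53, 0.92 and 2.48.

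Set against LPS alone, IL-4 priming left 2 of the 9 factors different after LPS: Runx1 was lower and Cebpa was higher. Over all genes, 8.97% were called (4.35% higher and 4.62% lower), and the share of calls that were higher was 48.5%, or 37.3% with median scaling. A median difference of -0.11 was found over the 9 genes, against 0.08 over all genes. Runx1 stood at -1.24, -0.43, -0.50 and -1.31 in IL-4 + LPS experiments A, B, C and G, against -0.31, 0.20 and 0.50 at the lowest, median and highest LPS array. The groups did not overlap, and Runx1 was 2.01-fold lower (log2 difference -1.01 ± 0.24; adjusted p = 0.0068). Its second probe, with a difference of 0.01 ± 0.20, was not called (adjusted p = 0.989). Cebpa was at -2.93, -2.19, -3.04 and -2.11 in IL-4 + LPS cells, against -4.55, -3.59 and -2.85 in LPS cells. The highest LPS array reached the IL-4 + LPS arrays, and the log2 difference of 1.14 ± 0.31 was called (adjusted p = 0.0211). It was not called with the replicate letter as a block (1.05, adjusted p = 0.0604) or without the IL-4 + LPS B (1.01, adjusted p = 0.0812) or G array (0.99, adjusted p = 0.0923). The call was also lost with normexp (0.61) and with median scaling (1.03, adjusted p = 0.105). It did not hold with only the 2 groups compared (adjusted p = 0.0729) or only the letters they share (1.18, adjusted p = 0.0649). The second Cebpa probe gave 0.73 ± 0.30 (adjusted p = 0.154).

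IFNγ priming left 3 factors different after LPS: Id2 was higher, and Cebpd and Maf were lower. Over all genes, 22.8% were called (10.8% higher and 12% lower), and the share of calls that were higher was 47.3%, or 72.6% with median scaling. Over the 9 genes the median difference was -0.10, against -0.23 over all genes. Cebpd stood at 4.84, 5.87 and 6.86 in IFNγ + LPS experiments E, F and G, against 7.57, 7.95 and 8.12 at the lowest, median and highest LPS array. Cebpd was 4.12-fold lower (log2 difference -2.04 ± 0.36; adjusted p = 1.53e-04), with no overlap. Maf was at 2.91, 3.53 and 4.17 in IFNγ + LPS cells, against 4.09, 4.73 and 5.43 in LPS cells. Only experiment G of the IFNγ + LPS cells reached the LPS range, and Maf was 2.46-fold lower (log2 difference -1.30 ± 0.30; adjusted p = 0.0021). Id2 was at 6.46, 6.71 and 5.67 in IFNγ + LPS cells, against 4.05, 4.65 and 4.81 in LPS cells, a 3.39-fold rise (log2 difference 1.76 ± 0.28; adjusted p = 4.23e-05). Its second probe was 1.68 ± 0.25 higher (adjusted p = 2.25e-05). Without the IFNγ + LPS G array, Cebpb (0.80, adjusted p = 0.0426) and Zbtb46 (1.97, adjusted p = 0.0432) were called as well, with differences of 0.60 ± 0.25 (adjusted p = 0.0883) and 1.40 ± 0.62 (adjusted p = 0.112) over all arrays.

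Between the priming stimuli without LPS, 1 factor was higher and 3 were lower in IL-4 than in IFNγ cells, while 27.9% of all genes were called (14.8% higher and 13.1% lower). The share of calls that were higher was 53.2%, and 27.7% with median scaling, which moved the median of all genes to -0.06, against 0.30 in the model. The median difference of the 9 genes was -0.58. Cebpa was higher in IL-4 cells, by 3.56 ± 0.38 (adjusted p = 7.77e-08), and stood above every IFNγ array in each IL-4 array. Cebpb was lower, by -2.18 ± 0.27 (adjusted p = 8.89e-07), as was Id2, by -1.15 ± 0.31 (adjusted p = 0.0059), and Zbtb46, by -2.36 ± 0.68 (adjusted p = 0.0107). Zbtb46 was not called without IFNγ E (adjusted p = 0.0996) or F (0.0595), nor with normexp (-1.51, adjusted p = 0.182). A dimmer Zbtb46 probe was called the other way, as given with the probes further on. For Spi1 the log2 difference was -0.76 ± 0.29 (adjusted p = 0.0538), and without the IFNγ G array it was -1.08 and passed (adjusted p = 0.0096). For Cebpd the difference of 0.84 ± 0.40 was not called (adjusted p = 0.12), and it was called without that array (1.54, adjusted p = 0.0012), with the slide as a block (1.43, adjusted p = 0.0017) and with quantile normalization (1.10, adjusted p = 0.021). No slide holds both kinds of primed cells, so these differences could not be set within a slide.

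With LPS, 3 factors were higher and 3 were lower in IL-4 + LPS than in IFNγ + LPS cells, against 25.6% of all genes called (13.8% higher and 11.8% lower). The share of calls that were higher was 53.8%, and 25.2% with median scaling. The median difference of the 9 genes was 0.51, against 0.29 over all genes. Cebpd was 3.82-fold higher in IL-4 + LPS cells (log2 difference 1.93 ± 0.40; adjusted p = 6.66e-04), with no overlap. Cebpa (1.24 ± 0.38, adjusted p = 0.0183) and Maf (1.12 ± 0.33, adjusted p = 0.0123) were higher too, and with the replicate letter as a block neither was called (adjusted p of 0.0522 and 0.154). With the slide as a block Cebpa was at 0.75 and not called (adjusted p = 0.239). Nor was it with normexp (0.26, adjusted p = 0.96) or median scaling (0.87, adjusted p = 0.169). Its call was also lost with quantile normalization (0.94, adjusted p = 0.092) and with the scan day as a block (0.84, adjusted p = 0.119). The second Cebpa probe gave 0.96 ± 0.37 (adjusted p = 0.0551). Maf was not called with median scaling (0.75, adjusted p = 0.151) or the scan day as a block (0.77, adjusted p = 0.105). Removing IFNγ + LPS E took Maf to 0.81 (adjusted p = 0.119), and removing IFNγ + LPS F, IL-4 + LPS B or IL-4 + LPS G took Cebpa to adjusted p of 0.0784, 0.052 and 0.05. Runx1 (-1.11 ± 0.29, adjusted p = 0.0059), Id2 (-1.22 ± 0.31, adjusted p = 0.004) and Zbtb46 (-2.45 ± 0.68, adjusted p = 0.0091) were lower in IL-4 + LPS cells. For Id2 the groups overlapped. Its call was lost with normexp (-0.97, adjusted p = 0.171) and when only the 2 groups compared were fitted (adjusted p = 0.103). Runx1 and Zbtb46 lost their call without IFNγ + LPS E (adjusted p of 0.0635 and 0.0593), and Zbtb46 also without IFNγ + LPS F (0.0543) and with normexp (-2.08, adjusted p = 0.055). The second Runx1 probe was at 0.05 ± 0.25 and not called (adjusted p = 0.889).

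The 5 Zbtb46 probes disagreed. The brightest, A_52_P241508, was above background on all 28 arrays, and its values are those given so far. A_51_P381178, annotated 23.5 kb away, was above background on 11 arrays, among them all 4 IL-4 + LPS and all 4 IL-4 arrays. It stood at -2.43, -4.44, -3.40 and -1.99 in IL-4 + LPS cells, against -6.49 at the median LPS array (lowest -8.05, highest -6.05; no LPS array above background). All IL-4 + LPS arrays were above all LPS arrays, at least 13.2-fold by the bound for signals not well above background (fitted log2 difference 3.76 ± 0.43; adjusted p = 1.26e-06). The bound sets the mean of the bright group against, on each dim array, the lowest signal among probes above background or the probe's own signal, whichever is higher. A_51_P381178 was also higher in IL-4 + LPS than in IL-4 cells (2.09 ± 0.48, adjusted p = 0.0012), in IL-4 + LPS than in IFNγ + LPS cells (3.24 ± 0.52, adjusted p = 4.78e-05) and in IL-4 than in untreated cells (1.70 ± 0.43, adjusted p = 0.0084; 1 untreated array above background). It was higher in IL-4 than in IFNγ cells too (1.45 ± 0.52, adjusted p = 0.0386; 1 of 3 IFNγ arrays above background). In that comparison the brightest probe was called the other way, at -2.36. The LPS change of A_51_P381178 in unprimed cells was 0.03 ± 0.36 (adjusted p = 0.957), against 4.82 for the brightest probe.

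A_52_P214042, annotated to the same transcript as the brightest probe and 0.6 kb away, was above background on 5 arrays, 3 of them IL-4 + LPS. It stood at -4.21, -6.50, -4.70 and -3.29 in IL-4 + LPS experiments A, B, C and G, against -6.58, -7.45 and -7.79 in IFNγ + LPS cells, none of them above background. The IL-4 + LPS mean was at least 5.34-fold higher (fitted log2 difference 2.60 ± 0.83, adjusted p = 0.0215), and the LPS comparison gave 2.93 ± 0.68 (adjusted p = 0.0059). Without its 3 IL-4 + LPS arrays this probe would have missed the filter of at least 3 arrays above background. Its tests of IL-4 + LPS cells are therefore given only as a description. A_52_P652885, 10.0 kb away, was above background on 16 arrays and passed none of the 11 comparisons. A_52_P183287, 22.2 kb away, was above background on 2 arrays and was not tested. Averaging all tested probes, which leaves out A_52_P183287, turned the gene's sign. IL-4 + LPS against LPS was -1.06 by the brightest probe and 1.73 by the mean (adjusted p = 0.005). IL-4 + LPS against IFNγ + LPS was -2.45 and 1.34 (adjusted p = 0.0432). Since ZBTB46 is a dendritic cell marker, the 9 dendritic cell markers are given beside this: their summed signal was 85.6 to 199 in IL-4 + LPS cells and 152 to 205 in IL-4 cells, against 13.9 to 16.9 in IFNγ + LPS, 15.2 to 25.4 in IFNγ, 11.4 to 24.0 in LPS and 23.9 to 55.5 in untreated cells, in units of the array's 75th percentile. Clec10a (mean level 6.41 in IL-4 + LPS and 3.85 in LPS cells) and Itgax carried most of this sum. Itgax was at 5.00 to 6.01 in IL-4 + LPS cells, against -8.38 to 2.46 in LPS cells, where 6 of 7 arrays were above background. Other members of the list ran the other way between primed cells. Clec9a averaged -6.69 in IL-4 + LPS and -7.64 in IL-4 cells, against -1.53 in IFNγ + LPS and -0.99 in IFNγ cells. Dpp4 averaged -4.08 in IL-4 + LPS against -1.91 in IFNγ + LPS cells, and Ccr7 -1.20 against 0.31. Cd209a was above background on no array with IL-4, and the part of these markers in the probe values was not tested.

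**Figure D4:**
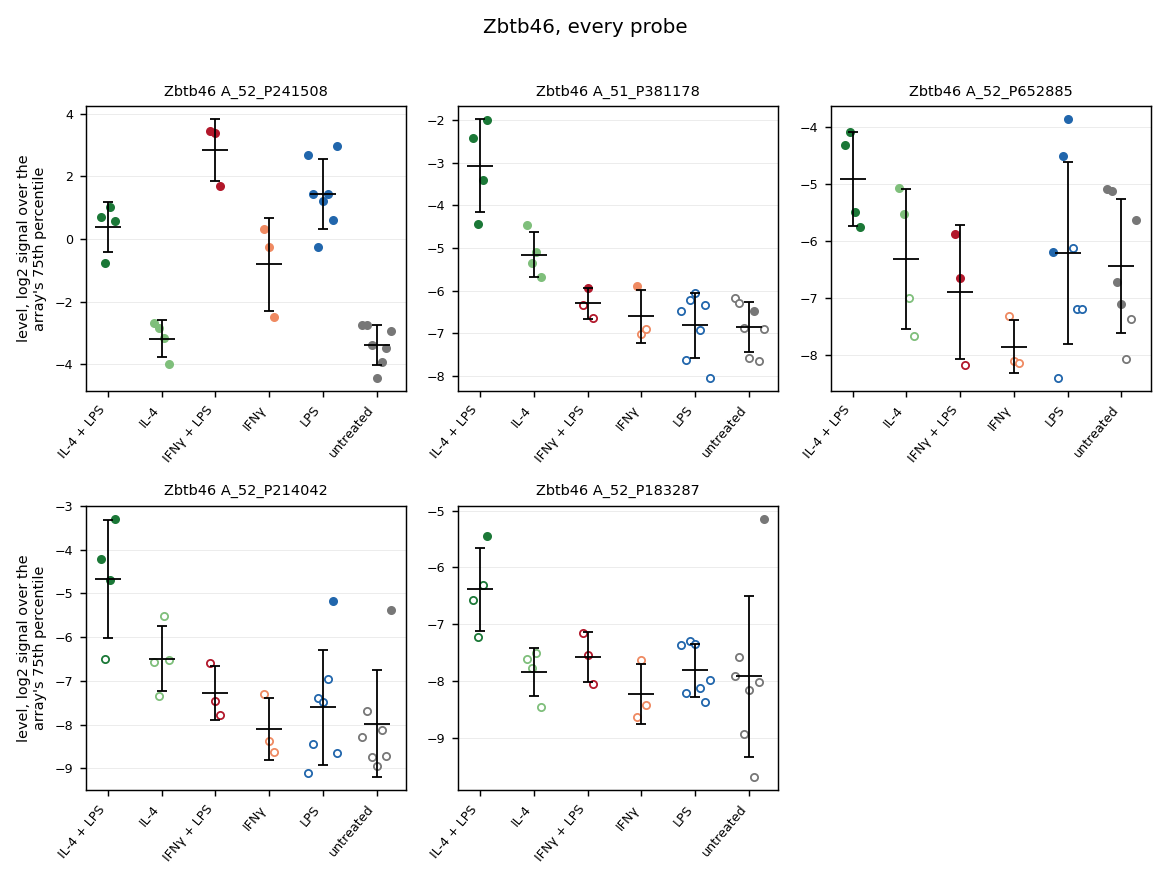
Level of each of the 5 Zbtb46 probes on every array (log2 processed signal over the array's 75th percentile), with groups from left to right IL-4 + LPS, IL-4, IFNγ + LPS, IFNγ, LPS and untreated. Filled points were above background and open points were not, and bars give the mean ± SD. The brightest probe is highest in IFNγ + LPS cells (1.70 to 3.44), while A_51_P381178 is highest in IL-4 + LPS cells (-4.44 to -1.99).

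The other probes of Maf and Runx1 are shown because calls of both genes differed between probes. Maf was measured by 4 probes. The brightest gave 0.14 for LPS against untreated cells, whereas A_52_P1074873, 20.6 kb away, gave -1.17 ± 0.20 (adjusted p = 2.02e-05). In that probe the LPS arrays were at -0.78 to 0.20, against 0.58 to 1.08 in untreated cells, with no overlap. A_51_P379230 and A_52_P306079 lay at -0.20 ± 0.19 (adjusted p = 0.45) and -0.01 ± 0.24 (adjusted p = 0.986). Under IL-4 alone, A_51_P379230 fell by 1.69 ± 0.23 (adjusted p = 7.49e-06) and A_52_P1074873 by 1.47 ± 0.23 (adjusted p = 5.83e-05), and the A_52_P306079 difference of -0.57 ± 0.27 was not called (adjusted p = 0.222). The last probe has 1 untreated array without a value. The IL-4 by LPS interaction was called for the 2 dim probes, at 1.64 ± 0.32 (adjusted p = 0.0061) for A_51_P379230 and 1.45 ± 0.33 (adjusted p = 0.018) for A_52_P1074873. For the brightest probe it was 1.00 and not called. In IL-4 + LPS against IFNγ + LPS cells, A_51_P379230 (0.94, adjusted p = 0.0139) and A_52_P1074873 (1.33, adjusted p = 8.82e-04) were higher, like the brightest. A_52_P306079 was not called there (0.45, adjusted p = 0.324).

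The second Runx1 probe, A_52_P202358, lies 40.0 kb from the first. Both probes were higher in IFNγ + LPS than in IFNγ cells by 0.71, without passing the test (adjusted p of 0.16 for the brightest and 0.0813 for the second). It was higher in IL-4 than in IFNγ cells (0.66 ± 0.25, adjusted p = 0.0468), where the brightest probe differed by 0.02. The 2 IL-4 + LPS comparisons in which the brightest probe was lower were not called in it. Id2's second probe was called in the same direction as the first in all 7 comparisons in which the first was called.

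**Figure D5:**
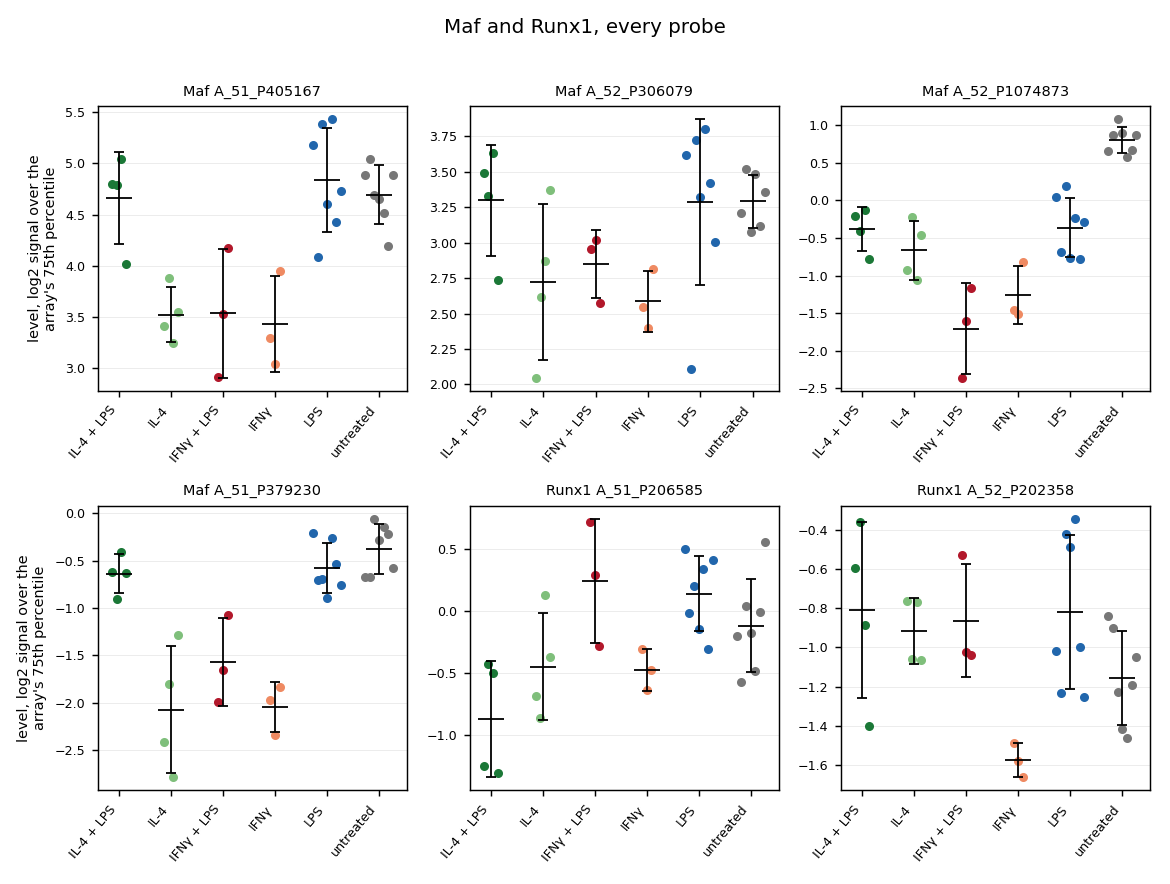
Level of each Maf and Runx1 probe on every array (log2 processed signal over the array's 75th percentile), with groups from left to right IL-4 + LPS, IL-4, IFNγ + LPS, IFNγ, LPS and untreated. Filled points were above background, and bars give the mean ± SD. In A_52_P1074873 all LPS arrays (-0.78 to 0.20) lie below all untreated arrays (0.58 to 1.08).

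Ordered by mean level over the 6 groups, the 9 genes differed in which groups came first. Gfi1 was highest in LPS cells (2.74), then IL-4 + LPS (2.29), IFNγ + LPS (1.75), IFNγ (-5.41), IL-4 (-5.99) and untreated cells (-6.07). Neighbouring groups overlapped except between IFNγ + LPS and IFNγ. Cebpa ran from IL-4 (2.07) through untreated (0.56), IFNγ (-1.49), IL-4 + LPS (-2.57) and LPS (-3.70) to IFNγ + LPS cells (-3.81). Each of the first 3 groups was separate from the next. Among the last 3 only neighbouring groups overlapped, and IL-4 + LPS cells were separate from IFNγ + LPS cells. Cebpb was highest in IFNγ + LPS (7.34), then IL-4 + LPS (6.77), LPS (6.75), IFNγ (6.42), untreated (4.27) and IL-4 cells (4.24), with a gap only between IFNγ and untreated cells. For Cebpd the order was LPS (7.90), IL-4 + LPS (7.79), IFNγ + LPS (5.86), IL-4 (4.33), untreated (4.31) and IFNγ (3.49), with gaps on either side of IFNγ + LPS cells. Id2 was highest in IFNγ + LPS (6.28), then IL-4 + LPS (5.06), IFNγ (4.80), LPS (4.52), IL-4 (3.66) and untreated cells (2.97), and only the last step showed no overlap. Zbtb46 went from IFNγ + LPS (2.84) through LPS (1.44), IL-4 + LPS (0.38) and IFNγ (-0.81) to IL-4 (-3.17) and untreated cells (-3.38), with a gap between IFNγ and IL-4 cells.

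Spi1 was highest in IL-4 + LPS (1.64) and LPS cells (1.58), followed by IFNγ + LPS (1.13), IFNγ (0.33), untreated (-0.11) and IL-4 cells (-0.43), and each overlapped with the next. Maf ran from LPS (4.84), untreated (4.70) and IL-4 + LPS (4.66) down to IFNγ + LPS (3.54), IL-4 (3.52) and IFNγ cells (3.43). Runx1 ran from IFNγ + LPS (0.24) to IL-4 + LPS cells (-0.87), with LPS (0.14), untreated (-0.12), IL-4 (-0.45) and IFNγ (-0.47) between, and in both genes every neighbouring pair overlapped.

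The genes whose levels followed each factor most closely over the 28 arrays are given as a description, since the arrays share their treatment groups. Gfi1 ran most closely with Dtx2 (r = 0.99) and Tlr1. Cebpa ran with Gatc (0.98), Triap1 and Btbd2, Cebpb with Klf6 (0.98), Met and Sod2, and Cebpd with Dtwd1 (0.97), Ubtd2 and Gpr85. Zbtb46 was closest to 2210010C04Rik (0.98), 1200016E24Rik and TC1533348, Spi1 to TC1500646 (0.96), Optn and NAP042348-1, and Id2 to Tgoln2 (0.95), Camsap1 and Zfp143. Maf and Runx1 had weaker matches, Ppm1e (0.84), Cc2d2a and AK085872 for Maf and A630057N01Rik (0.77), Rtl5 and ENSMUST00000059036 for Runx1.

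Of 48 relatives and partners of these factors, 46 were tested. With LPS in unprimed cells 19 rose and 16 fell, where 42.4% of all genes were called, with a median difference of 0.20, against 0.06 over all genes. Maff, a small Maf protein, rose by 3.49 ± 0.23 (adjusted p = 2.48e-12), Nfil3 by 3.36 ± 0.32 (adjusted p = 2.37e-09) and Id3, a relative of Id2, by 3.03 ± 0.34 (adjusted p = 5.82e-08). Ets1, an ETS factor like PU.1, fell by 3.15 ± 0.29 (adjusted p = 1.38e-09). In IL-4-primed cells LPS raised 16 and lowered 15 (31.3% of all genes called), with Klf4, a zinc-finger factor of monocytes, down by 3.14 ± 0.33 (adjusted p = 3.95e-08), and in IFNγ-primed cells 10 and 3 (11.8% of all genes).

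IL-4 alone raised 8 relatives and lowered 2, against 11.3% of all genes called. Batf3 rose by 4.19 ± 0.29 (adjusted p = 1.32e-10), Irf4, a partner of PU.1, by 3.62 ± 0.34 (adjusted p = 2.34e-08) and Nfil3 by 3.18 ± 0.37 (adjusted p = 8.66e-07). IFNγ alone raised 15 and lowered 6 (25.9% of all genes), among them Irf4, which fell by 2.67 ± 0.37 (adjusted p = 6.05e-06). After LPS, IL-4 priming left 6 relatives higher and 4 lower than LPS alone (8.97% of all genes), with Batf3 at 3.93 ± 0.29 (adjusted p = 1.40e-09), and IFNγ priming left 13 higher and 6 lower (22.8% of all genes), with Tfec at -2.28 ± 0.20 (adjusted p = 1.57e-08). The IL-4 by LPS interaction was called for 3 relatives, all negative (1.62% of all genes), and the IFNγ by LPS interaction for 4 positive and 7 negative (8.34% of all genes). Between primed cells, 8 were higher and 11 lower in IL-4 than in IFNγ cells (27.9% of all genes), and 6 and 11 in IL-4 + LPS than in IFNγ + LPS cells (25.6% of all genes).

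The 24 listed target genes of these factors were all tested. LPS in unprimed cells raised 17 and lowered 1, where 42.4% of all genes were called, with a median difference of 1.52, against 0.06 over all genes. Il6, a C/EBPβ target, rose by a fitted 12.90 ± 0.48 on the log2 scale (adjusted p = 1.04e-16), a size set against background-level values, since 1 of 7 untreated arrays was above background. Tlr4 fell by 0.90 ± 0.22 (adjusted p = 0.0012). In IL-4-primed cells LPS raised 14 and lowered none of them (31.3% of all genes called), and in IFNγ-primed cells it raised 9 and lowered 1 (11.8% of all genes). IL-4 alone raised 3 and lowered 8 (11.3% of all genes), with Cd14, a PU.1 and C/EBP target, down by 3.06 ± 0.18 (adjusted p = 6.36e-12), and IFNγ alone raised 14 and lowered 4 (25.9% of all genes), with Mrc1 at -4.32 ± 0.27 (adjusted p = 1.14e-11). After LPS, IL-4 priming left 2 higher and 4 lower than LPS alone, against 8.97% of all genes called. Arg1, above background on none of the LPS arrays, was at least 1610-fold higher in IL-4 + LPS cells (adjusted p = 1.81e-12). IFNγ priming left 4 higher and 4 lower after LPS (22.8% of all genes), and the IFNγ by LPS interaction was negative for 8 and positive for none of the 24 (8.34% of all genes). In it Ptgs2 was at -6.85 ± 0.73 (adjusted p = 9.64e-07), with 3 of 7 untreated arrays above background. The IL-4 by LPS interaction was called for Cd14 alone among the 24 (1.82 ± 0.25, adjusted p = 1.42e-04), and for 1.62% of all genes. Direct comparison of the primed cells gave 2 higher and 10 lower in IL-4 than in IFNγ cells (27.9% of all genes), and 5 and 4 in IL-4 + LPS than in IFNγ + LPS cells (25.6% of all genes).

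Markers of other cells moved with some groups. The summed signal of 4 stromal and endothelial markers was 2.43 to 5.14 in LPS cells, against 0.21 to 0.41 in untreated cells, and that of 6 T and NK cell markers was 1.44 to 4.96, against 0.23 to 0.50. In each sum 1 gene accounted for most of the difference. Pdgfrb averaged 1.64 in LPS and -4.43 in untreated cells, while Col1a1 was at -3.55 and -3.64, Col3a1 at -4.90 and -5.31 and Cdh5 at -2.78 and -3.09. Lck averaged 0.79 in LPS and -4.30 in untreated cells, while Cd3e was at -1.97 and -2.75, Cd2 at -4.95 in both, Cd3d at -6.74 and -6.85, Klrb1c at -5.05 and -4.66 and Ncr1 at -7.39 and -6.76. The 9 neutrophil and granulocyte precursor markers, the cells in which GFI1 and C/EBPα also act, summed to 16.8 to 49.2 in LPS cells, against 13.9 to 28.3 in untreated cells, and these ranges overlapped. B cell, erythroid, and eosinophil, mast cell and basophil markers summed to at most 0.67, 0.53 and 0.59 on any array. The part of these cells in the levels of the 9 factors was not tested.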

How the data were processed

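RNA of 28 macrophage cultures was read on single-colour Agilent 44K arrays. The authors' deposited intensity values come from Agilent Feature Extraction 9.5.1, per the file headers: the signal was detrended, with no scaling between arrays and no local background subtracted. A separate series-wide file deposited by the authors holds log2 values. That file was not used, because most of its columns did not match the arrays they are named for. Each column correlated with some array at 0.9986 or above. This best match was the named array for 2 of 28 columns and an array of the named group for 15.

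The processed signal was log2 transformed and the array's 75th percentile subtracted. Flagged outlier spots (at most 414 an array) were left out. Probes were named through accession, symbol or synonym, and a gene was represented by its brightest probe. Genes well above background on at least 3 of 28 arrays were tested in 1 limma model of 6 group means (limma 3.58.1, R 4.3.3, data.table version 1.17.8), two-sided, with p-values of each of 11 comparisons adjusted by Benjamini-Hochberg over all genes, and called at adjusted p under 0.05. The number of arrays, 3 to 7 a group, limits the precision. The procedure was tested on simulated data. Figures used Python 3.11.15 and matplotlib 3.10.9. Motif positions were counted in RefSeq promoters of 250 bases.

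Named are the 9 members, the 3 genes closest to each by correlation, and examples from the listed relatives and targets, out of the up to 3 called rises and 3 called falls of largest size that the rule takes from each list and comparison. Members and lists were chosen with earlier results of these data known. Experiment letters paired arrays between the IL-4 groups (correlations of deviations 0.15 to 0.73) and between the IFNγ groups (0.28 to 0.64). The 1 letter shared by IL-4 and IFNγ cells gave 0.45 without LPS and 0.53 with LPS. Elsewhere the letters paired arrays in part or not at all. The correlations were -0.22 to 0.60 for IL-4 against untreated, -0.53 to 0.44 for IL-4 + LPS against LPS, and at most 0.28 in the others. Alternatives were other scalings, normexp, no filter, slide, scan day and letter blocks, subsets of arrays and leaving out each array. A few items are not reported here.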

Additional observations from a re-analysis of the deposited data

Results flagged for a closer look

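In 3 cases an array stood far from the others of their group, among 52 groups of values checked, of which chance marks about 1 in 20. The IFNγ and IFNγ + LPS groups, with 3 arrays each, were too small for this check and were left out. Cebpa, by its brightest probe, was at 2.70 in IL-4 experiment C, while the nearest IL-4 array was at 1.92. Spi1 was at 2.09 in LPS experiment E, with the nearest LPS array at 1.65. The dim Zbtb46 probe A_52_P214042 was at -5.37 in untreated experiment G, with the nearest untreated array at -7.69, and it was above background on that untreated array alone.

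The LPS change differed between primed and unprimed cells in 6 probe tests of limma's interaction term. In IFNγ cells the brightest Cebpa probe had an interaction of 1.96 (adjusted p = 0.0113) and its second probe A_51_P214087 one of 1.72 (adjusted p = 0.0197). The brightest Cebpb probe had -1.56 (adjusted p = 0.0047) and its second probe A_52_P605846 had -1.37 (adjusted p = 0.0151). In IL-4 cells 2 of the dimmer Maf probes had positive interactions, A_51_P379230 of 1.64 (adjusted p = 0.0061) and A_52_P1074873 of 1.45 (adjusted p = 0.018). The causes were not tested.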

How the results depend on the processing

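Of the 45 calls of the 9 genes, 24 held under every alternative other than leaving out an array, and 96 differences that were called neither way turned sign. With normexp background correction, 1 of the 9 genes was called for IL-4 against untreated cells, 3 for IFNγ + LPS against IFNγ, 1 for IL-4 + LPS against LPS, 1 in the IFNγ interaction and 3 for IL-4 + LPS against IFNγ + LPS. Fitting only the groups compared gave 2, 1 and 3 for IFNγ + LPS against IFNγ, IL-4 + LPS against LPS and IL-4 + LPS against IFNγ + LPS. With median scaling 1 was called for IL-4 + LPS against LPS and 1 in the IFNγ interaction. Using only letters in every group compared gave 1 for IL-4 + LPS against LPS and 1 in the IFNγ interaction. IL-4 against IFNγ, and IL-4 + LPS against IFNγ + LPS, then hold 1 array of each group, so their calls are not counted here. The Zbtb46 difference was then -1.51 without LPS and -1.13 with LPS. With the slide block 1 was called in the IL-4 interaction, and with the replicate block on the letter 1 for IL-4 + LPS against LPS; that block also lost Cebpb in IFNγ + LPS against IFNγ (adjusted p = 0.0551) and Cebpa and Maf in IL-4 + LPS against IFNγ + LPS (0.0522 and 0.154). Leaving out 1 array at a time gave 7 to 7 calls for LPS against untreated, 2 to 2 for IL-4, 5 to 6 for IFNγ, 8 to 8 for IL-4 + LPS against IL-4, 5 to 6 for IFNγ + LPS against IFNγ, 1 to 2 for IL-4 + LPS against LPS, 3 to 5 for IFNγ + LPS against LPS, 0 to 0 and 2 to 3 in the IL-4 and IFNγ interactions, 3 to 6 for IL-4 against IFNγ, and 3 to 6 for IL-4 + LPS against IFNγ + LPS. Signs turned for Maf with LPS under quantile normalization (-0.55) and in IL-4 + LPS against IFNγ + LPS with shared letters only (-0.16). They also turned for Zbtb46 with the mean of all tested probes, at 1.73 against LPS, 0.56 between primed cells and 1.34 with LPS. Over all genes the alternatives called 5557 to 12951 genes for LPS against untreated (9508 in the model used), 742 to 3935 (2541) for IL-4, 2682 to 7458 (5795) for IFNγ, 3575 to 11575 (7003) for IL-4 + LPS against IL-4, 766 to 6975 (2654) for IFNγ + LPS against IFNγ, 534 to 3847 (2010) and 2053 to 7588 (5105) for IL-4 + LPS and IFNγ + LPS against LPS, 40 to 1071 (363) and 755 to 4161 (1868) in the IL-4 and IFNγ interactions, 1382 to 7061 (6256) for IL-4 against IFNγ and 810 to 6798 (5725) for IL-4 + LPS against IFNγ + LPS. The causes were not tested. The authors' value table, planned as an alternative, was not run.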
